A study of Mus musculus with 84 samples.

Results

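The nuclear receptors of the PPAR family (Pparg, Ppara, Ppard), their RXR partners (Rxra, Rxrb, Rxrg), the coactivators Ppargc1a and Ppargc1b and the estrogen-related receptor Esrra were followed in the liver and the inguinal adipose tissue (IAT) of diabetic db/db mice. These 9 genes, of 27845 gene names on the arrays, were taken by name, and 16 probes of 60 bases reported on them. The mice were males of the strain BKS Cg-m+/+ Leprdb/J, 8 weeks old on arrival and acclimatised for 1 week, and every group carried the same defect of the leptin receptor, the controls included. In each tissue 36 mice in groups of 6 had received rosiglitazone (RSG), a thiazolidinedione that activates PPARγ, or a compound named only S, by mouth for 18 days at 28, 84 or 280 µmol/kg. By weight the RSG doses were 10, 30 and 100 mg/kg. RNA of each mouse shared 2 arrays of exchanged dyes with pooled RNA of that tissue from 6 untreated db/db animals, and 12 further samples were technical repeats of liver RNA. The values below are log2 ratios of treated mouse over that pool, with n = 6 mice per group.

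PPARs bind DNA as pairs with an RXR. PPARγ directs fat cell differentiation and lipid storage and is the receptor of thiazolidinediones, PPARα directs fatty acid oxidation in liver and brown fat, and PPARδ is expressed in most tissues. The coactivators encoded by Ppargc1a and Ppargc1b bind these receptors and ERRα, the product of Esrra, and through them drive genes of mitochondria and oxidative metabolism. In liver, Ppargc1a is known as a fasting-induced gene that promotes glucose output. All of these proteins can act without a change of their own mRNA, which is what the arrays measured.

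RefSeq promoters of build GRCm38.p6, from 250 bases before to 50 bases after each start, were found for 8 members, 13 promoters in all. They are printed for Ppara, Ppargc1a and Esrra, whose mRNA rose in IAT at the top dose (Ppargc1b, which also rose, had no entry), for a pair of alternative starts of Pparg, and for the Rxrg start that holds the receptor-binding hexamer AGGTCA, whose letters stand in capitals wherever it occurs on either strand. The second start of Pparg shown is the one used for the fat-cell isoform of the receptor. All run 5′ to 3′ on the strand of the gene: Ppara at chr15:85735526-85735825 (plus), Ppargc1a at chr5:51567676-51567975 (minus), Esrra at chr19:6921759-6922058 (minus), Pparg start 1 at chr6:115360894-115361193 (plus), Pparg start 3 at chr6:115421816-115422115 (plus) and Rxrg start 2 at chr1:167618015-167618314 (plus).
Ppara: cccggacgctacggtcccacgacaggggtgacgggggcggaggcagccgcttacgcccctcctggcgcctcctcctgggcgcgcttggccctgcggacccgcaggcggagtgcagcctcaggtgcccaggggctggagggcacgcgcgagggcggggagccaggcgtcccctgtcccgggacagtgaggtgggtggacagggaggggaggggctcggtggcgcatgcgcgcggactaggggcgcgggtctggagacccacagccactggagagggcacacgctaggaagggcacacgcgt
Ppargc1a: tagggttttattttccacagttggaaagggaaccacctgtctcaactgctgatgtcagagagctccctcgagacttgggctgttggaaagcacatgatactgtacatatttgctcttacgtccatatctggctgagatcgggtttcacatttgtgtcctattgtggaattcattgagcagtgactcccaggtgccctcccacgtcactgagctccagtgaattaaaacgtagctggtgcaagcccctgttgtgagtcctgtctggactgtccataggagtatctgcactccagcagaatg
Esrra: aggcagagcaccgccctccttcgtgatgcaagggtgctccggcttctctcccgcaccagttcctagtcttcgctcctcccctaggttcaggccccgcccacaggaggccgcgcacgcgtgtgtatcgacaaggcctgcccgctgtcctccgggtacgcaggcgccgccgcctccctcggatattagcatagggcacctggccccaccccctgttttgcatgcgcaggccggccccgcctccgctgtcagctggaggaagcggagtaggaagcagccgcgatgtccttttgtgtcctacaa
Pparg start 1: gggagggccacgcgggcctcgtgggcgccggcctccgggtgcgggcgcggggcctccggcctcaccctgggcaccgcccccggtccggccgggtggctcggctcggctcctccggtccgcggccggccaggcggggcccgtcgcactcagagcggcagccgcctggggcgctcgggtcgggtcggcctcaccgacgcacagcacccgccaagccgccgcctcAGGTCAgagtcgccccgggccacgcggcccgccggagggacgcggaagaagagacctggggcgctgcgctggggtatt
Pparg start 3: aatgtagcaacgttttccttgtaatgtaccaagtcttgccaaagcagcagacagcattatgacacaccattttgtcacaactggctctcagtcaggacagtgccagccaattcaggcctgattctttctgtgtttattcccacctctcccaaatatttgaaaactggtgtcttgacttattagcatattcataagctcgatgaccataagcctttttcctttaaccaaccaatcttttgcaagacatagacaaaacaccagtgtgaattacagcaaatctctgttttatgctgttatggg
Rxrg start 2: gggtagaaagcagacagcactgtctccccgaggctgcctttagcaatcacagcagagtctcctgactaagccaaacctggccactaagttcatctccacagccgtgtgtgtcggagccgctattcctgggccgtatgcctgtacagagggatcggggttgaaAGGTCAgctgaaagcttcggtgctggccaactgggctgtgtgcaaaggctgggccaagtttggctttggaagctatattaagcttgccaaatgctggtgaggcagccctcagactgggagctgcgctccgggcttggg

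AGGTCA stood in 4 of the 13 promoters, which belong to 3 members (Pparg, Rxra and Rxrg), and in 16.3% of all 32851 promoters of the same length. The direct repeat AGGTCANAGGTCA, which PPAR and RXR pairs are known to bind and which contains that hexamer on each side, stood in 0 of 13 and in 0.0396% of all promoters. The ERR element TCAAGGTCA, which also contains the hexamer, and the cAMP element TGACGTCA stood in 0 of 13, against 0.423% and 1.79% of all. The GC box GGGCGG stood in 8 of 13 promoters and in 35.7% of all, and the median base content of G and C over all promoters was 52.7%, against 74.7% for Ppara, 66.0% for Esrra, 48.7% for Ppargc1a, 80.3% for Pparg start 1 and 40.3% for Pparg start 3. The letters say nothing of sites outside these windows.

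Sequences, as the study calls probes, were tested where the treated channel of a group, or the pool channel of the tissue, was marked well above background by the scanner software on 50% or more of its arrays. This left 25256 in liver and 30796 in IAT, with 8 members (15 probes) tested in liver and all 9 (16 probes) in IAT. The share of probes well above background on the treated channel ran from 43.4 to 65.8% over liver arrays and from 61.8 to 78.2% over IAT arrays, and no member probe was saturated. The pool is 1 control sample, shared by all groups of a tissue, so the spread between control mice is in no test. Liver samples carried the hepatocyte transcript Alb at a pool level of 9.47 (log2 above the 75th percentile of the array), and IAT samples the adipocyte transcripts Adipoq and Plin1 at 6.27 and 6.17. Skeletal muscle transcripts were also abundant in the IAT pool, with Myh4 at 7.65 and Acta1 at 6.24, and the summed level of the 15 muscle markers ran from 9.64 to 10.1 on the pool channel and that of the 10 adipocyte markers from 9.17 to 9.62, sums over different probes that are not ranked here. In tissue samples of this kind, fewer cells of a type and less RNA per cell cannot be told apart.

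The pools of both tissues differed in which receptor they carried. Ppara was at 4.01 ± 0.07 in the liver pool and at -1.40 ± 0.10 in the IAT pool (log2 signal above the 75th percentile of the array, SD over 36 samples), a 42.4-fold difference for the same probe. Pparg lay the other way, at 4.404 ± 0.06 in IAT and 2.58 ± 0.06 in liver, a 3.55-fold difference, and Rxrg, the RXR of muscle and fat, likewise with 2.36 ± 0.06 and 1.496 ± 0.06. Rxra, the main RXR of liver, was 3.27-fold and Ppargc1a 4.84-fold higher in the liver pool, while Ppargc1b, Rxrb and Esrra were 1.63-fold, 1.62-fold and 1.34-fold higher there. Ppard was near the background in both tissues: its treated channel passed on 50 of 72 arrays in IAT and 11 of 72 in liver. These levels are descriptions, since each tissue was scaled on its own arrays, and levels of different probes are not compared.

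**Figure D1:**
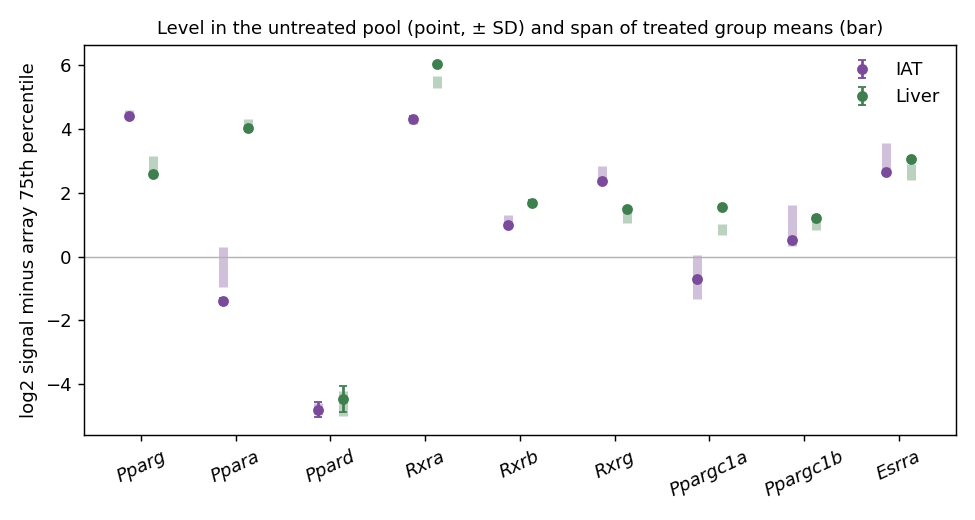
Level of the brightest probe of each member on the pool channel (points, mean ± SD over 36 samples) and the span of the 6 treated group means (bars), as log2 signal minus the 75th percentile of the array, in IAT and liver. Ppara sits at -1.40 in IAT and 4.01 in liver, and its IAT bar reaches 0.29 after treatment.

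In IAT the largest rise among the members was that of Ppara, which encodes the receptor of fatty acid oxidation genes. At 28, 84 and 280 µmol/kg RSG its mean log2 ratio was 0.73 ± 0.18, 1.17 ± 0.29 and 1.56 ± 0.27 (SD, n = 6; limma adjusted p = 1.5e-07, 2.38e-12 and 1.32e-15), which is 1.66-fold, 2.25-fold and 2.96-fold. The lowest, median and highest mouse were at 0.56, 0.69 and 1.05 at the first dose, at 0.86, 1.16 and 1.55 at the second and at 1.03, 1.64 and 1.80 at the third. The mean was higher at each higher dose, and each dose overlapped the next. With S the means were 0.52 ± 0.18, 0.62 ± 0.22 and 1.62 ± 0.22 (adjusted p = 2.68e-05, 1.45e-06 and 3.22e-16), with mice from 0.38 to 0.86, from 0.29 to 0.90 and from 1.32 to 1.96. All 36 treated mice stood above the pool, and the S group at 280 µmol/kg did not overlap the S groups at the lower doses. The share of all probes without overlap was not counted, here or in the comparisons below. On the scale of levels Ppara reached 0.29 ± 0.28 and 0.28 ± 0.32 at 280 µmol/kg S and RSG, still below the 4.12 to 4.29 of the treated liver groups. Adjacent groups in the order of levels overlapped in IAT as in liver.

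Pparg, the target of RSG, did not pass the test in any of the 6 IAT groups. Its means ran from 0.05 to 0.19, and single mice from -0.46 to 0.52, on both sides of the pool in every group. At 280 µmol/kg RSG the 95% confidence interval was -0.14 to 0.24, and the lowest, median and highest mouse stood at -0.45, 0.16 and 0.43. With 280 µmol/kg S it was -0.05 to 0.32. Ppard passed in 1 group, at 280 µmol/kg S, with 0.34 ± 0.20 (adjusted p = 0.000776) and all 6 mice above the pool from 0.05 to 0.62. That call was lost when the arrays were corrected with normexp and loess (0.07, adjusted p = 0.0558) and in the value table of the authors (0.20, adjusted p = 0.121, without replicates 4, 5 and 6, whose columns did not match their arrays), at a signal near the background.

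Among the RXRs in IAT, Rxrg and Rxrb rose at the higher doses. Rxrg was at -0.02, 0.26 and 0.29 with RSG and at 0.08, 0.13 and 0.48 with S, and passed at 84 and 280 µmol/kg RSG and at 280 µmol/kg S (adjusted p = 0.00115, 0.000416 and 1.84e-07). Its 6 mice at 280 µmol/kg S stood between 0.42 and 0.57, whereas with the same dose of RSG 5 mice were between 0.32 and 0.47 and 1, replicate 2, at -0.32; without it the mean was 0.41. Rxrb, the widely expressed RXR, was lifted by less, 0.19 ± 0.08 at 280 µmol/kg RSG and 0.31 ± 0.08 at the same dose of S (adjusted p = 4.42e-07 and 2.67e-11), with every mouse above the pool. At 84 µmol/kg RSG it stood at 0.08 (adjusted p = 0.00992). Its second probe gave 0.27 and 0.41 at the top doses, so both probes of Rxrb stood above the pool there.

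The probes of Rxra disagreed. Probe 1, the brighter, at chr2:27584900-27584959 of build mm8 as the array files give it, was between -0.10 and 0.06 in the 6 IAT groups and passed in none (adjusted p = 0.05002 at 280 µmol/kg RSG, where all 6 mice were below the pool between -0.15 and -0.06). That group did pass as lower in the value table of the authors (-0.10, adjusted p = 0.0382) and with scan day as a random block (-0.10, adjusted p = 0.0108). Probe 2, at chr2:27581805-27581864, rose to 0.40 and 0.45 at 84 and 280 µmol/kg RSG and to 0.22 and 0.56 with S (adjusted p = 0.000283, 6.91e-05, 0.0358 and 1.74e-06). The files assign both to the same transcript. A mean over the probes turned the sign of the gene value at 84 and 280 µmol/kg RSG, to 0.16 and 0.17 (adjusted p = 0.0246 and 0.0149), so Rxra is given by probe in IAT.

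Of the coactivators, Ppargc1b rose at the top doses on all 4 of its probes. The brightest was at -0.07, 0.45 and 0.82 with RSG and at -0.13, -0.01 and 1.02 with S, and passed at 84 and 280 µmol/kg RSG (adjusted p = 1.39e-06 and 5.8e-12) and at 280 µmol/kg S (adjusted p = 2.65e-14), which is 1.77-fold and 2.02-fold at the top dose. At 280 µmol/kg RSG the lowest, median and highest mouse stood at 0.44, 0.85 and 1.08, and at 280 µmol/kg S at 0.78, 1.02 and 1.35. With neither compound did the mice at 280 µmol/kg overlap those at 28 µmol/kg. Of all IAT probes 25.4% with RSG and 43.5% with S differed between these doses by limma, and their overlap was not counted. The other probes at 280 µmol/kg gave 0.78, 1.19 and 0.51 with RSG and 0.97, 1.34 and 0.63 with S. They disagreed at 28 µmol/kg, where probe 4 was lower with RSG and S (-0.31 and -0.42, adjusted p = 0.0076 and 0.000478) and probe 2 with S (-0.20, adjusted p = 0.0362), while probe 3 stood at 0.19 and 0.07 and did not pass.

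Ppargc1a, the coactivator of mitochondrial biogenesis, changed sign between the lowest and the top dose. At 28 µmol/kg all 6 RSG mice (from -0.72 to -0.08) and all 6 S mice (from -1.15 to -0.07) were below the pool, with means of -0.35 ± 0.22 and -0.55 ± 0.39 (adjusted p = 0.00696 and 9.07e-05). At 84 µmol/kg the means were 0.18 and -0.14 and neither passed. At 280 µmol/kg all 6 RSG mice (from 0.47 to 0.81) and all 6 S mice (from 0.19 to 0.94) were above it, with means of 0.67 ± 0.13 and 0.61 ± 0.32 (adjusted p = 1.61e-06 and 5.95e-06). The second probe gave -0.45 and -0.56 at the lowest dose and 0.40 and 0.42 at the top dose, and passed in these 4 groups and, at -0.26, with 84 µmol/kg S. Both probes showed the change of sign.

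Esrra, which encodes the receptor ERRα that works with these coactivators, rose at the higher doses. It stood at 0.17 ± 0.14, 0.51 ± 0.06 and 0.69 ± 0.20 with RSG (adjusted p = 0.00455, 1.89e-10 and 1.11e-13) and at 0.11 ± 0.04, 0.31 ± 0.08 and 0.87 ± 0.12 with S, where the lowest dose missed the threshold (adjusted p = 0.0626, and 0.0337 with scan day as a random block). The lowest, median and highest mouse at 280 µmol/kg were at 0.31, 0.73 and 0.87 with RSG and at 0.66, 0.89 and 0.99 with S. Its second probe gave smaller ratios, -0.02, 0.20 and 0.37 with RSG and -0.09, 0.02 and 0.52 with S. Both probes passed at 84 and 280 µmol/kg RSG and at 280 µmol/kg S, and the call at 28 µmol/kg RSG rested on the first probe (mean of both 0.07, adjusted p = 0.224).

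**Figure D2:**
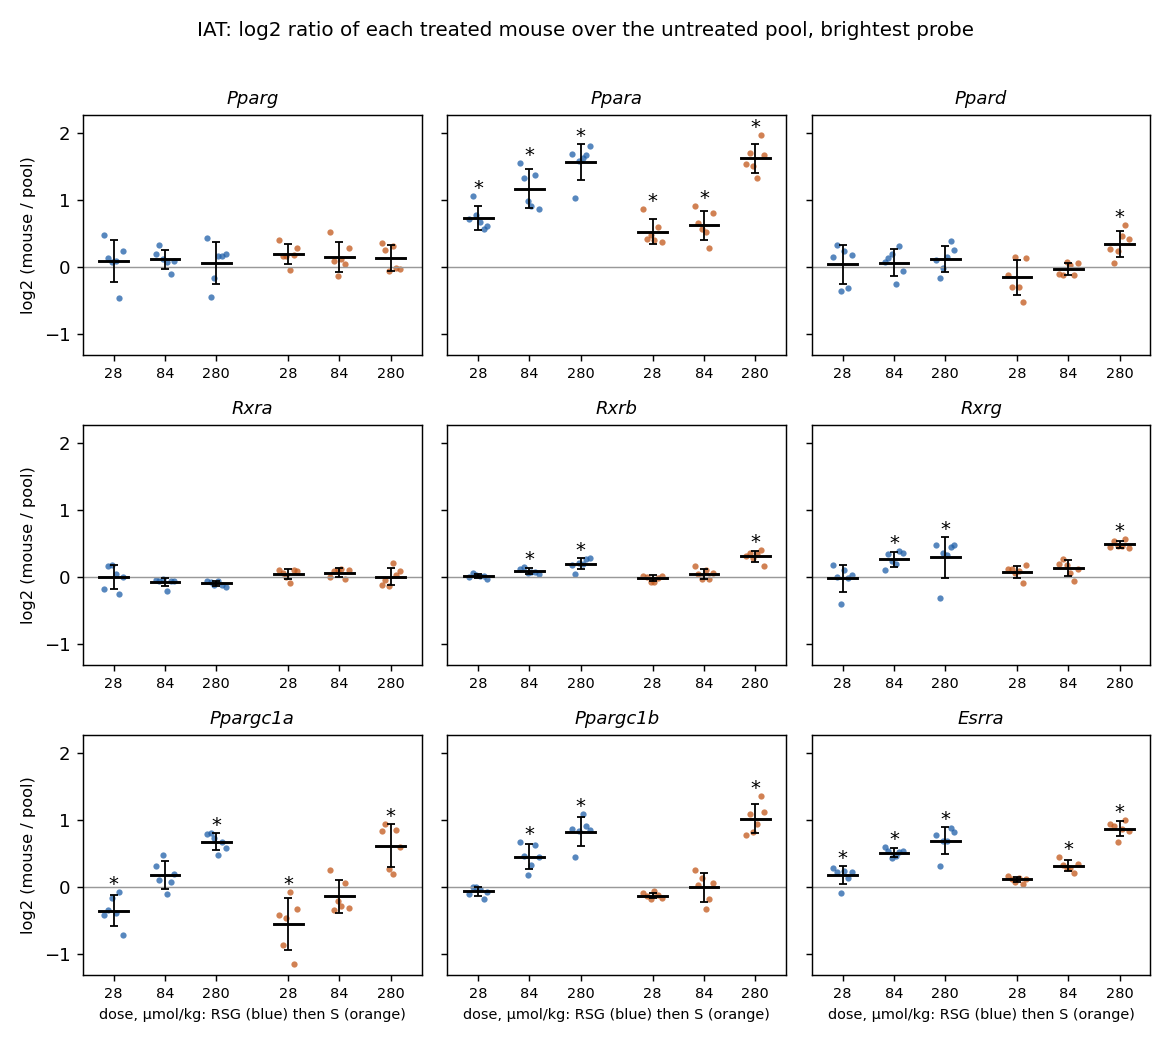
Log2 ratio of each IAT mouse over the pool (points), with mean and SD (black), by dose in µmol/kg for RSG (blue) and S (orange), brightest probe of each member; stars mark adjusted p under 0.05. Ppara lies above the pool in all 36 mice, Ppargc1a runs from -0.35 and -0.55 at 28 µmol/kg to 0.67 and 0.61 at 280 µmol/kg, and Pparg has no star.

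Counted over the brightest probes, 3, 5 and 6 of 9 members passed in IAT with rising RSG dose and 2, 2 and 7 with S. Over all probes tested in IAT the share was 46.9%, 65.6% and 67% with RSG and 47.6%, 55.7% and 74.7% with S, so the counts do not set the members apart from other sequences. The 6 and 7 members that passed at 280 µmol/kg were all higher than the pool, where 37.1% and 42.7% of all probes were higher and 29.8% and 32% lower. Markers of other cells moved in the same samples. All 8 brown adipocyte markers were higher at 280 µmol/kg of either compound, a list that holds Ppara itself, with Ucp1 at 3.27 and 3.36 and Cidea at 3.47 and 3.61, and their summed level went from between 5.09 and 5.61 in the pool to between 7.02 and 8.83. Skeletal muscle markers were lower, 12 of 15 with RSG and 15 of 15 with S, with medians of -1.59 and -2.85, and so were 7 of 9 macrophage markers with each compound (medians -0.62 and -0.37) and 7 and 10 of 15 epithelial markers. Of 8 endothelial markers 6 and 7 were lower (medians -0.35 and -0.46). The mean ratio of the muscle markers ran from -3.49 to 0.46 over the 6 mice at 280 µmol/kg RSG. In these mice Ppargc1a ran from 0.47 to 0.81, Esrra from 0.31 to 0.87 and Rxrg from -0.32 to 0.47. At 28 µmol/kg, where Ppargc1a was below the pool, 8 and 7 of 15 muscle markers were lower with RSG and S. Of the 8 brown adipocyte markers 6 were higher and 1 lower there with each compound (medians 1.45 and 0.89). Cox7a1, a cytochrome oxidase subunit of muscle and brown fat that is on that list, stood at -0.42 and -0.62. The part of these cells in the members' values was not tested.

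The dose effect was tested directly as the difference between 280 and 28 µmol/kg, in which the pool cancels. In IAT 6 of 9 members were higher at 280 µmol/kg RSG and 7 of 9 at 280 µmol/kg S, and none lower, against 25.4% and 43.5% of all probes that differed in either direction. Of these 30796 probes, 4231 were higher and 3601 lower with RSG, and 8171 higher and 5232 lower with S. The largest differences were those of Ppargc1a, 1.03 with RSG (95% confidence interval 0.72 to 1.33, adjusted p = 4.65e-06) and 1.16 with S (0.85 to 1.47, adjusted p = 2.08e-07). Ppargc1b followed with 0.89 and 1.15, Ppara with 0.83 and 1.09 and Esrra with 0.52 and 0.76. Rxrg differed by 0.31 and 0.41 and Rxrb by 0.18 and 0.33, and Ppard passed with S at 0.50, but not in the value table of the authors (0.32, adjusted p = 0.0755, again without those mice). The difference for Pparg was -0.04 (-0.30 to 0.23) with RSG and -0.06 (-0.32 to 0.21) with S, and neither passed. The arrays of 280 µmol/kg S were scanned on days that no other IAT group shares, and those of 280 µmol/kg RSG on a day shared with 84 µmol/kg RSG and 28 µmol/kg S only. With scan day blocked the call for Rxrg with RSG was lost (scan day as a fixed term in the fit; 0.21, adjusted p = 0.56), as it was without replicate 3 of 28 µmol/kg RSG (0.23, adjusted p = 0.0662).

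In liver both Pparg and Ppara were above the pool. Pparg, which is low in normal liver and known to rise in fatty liver, stood at 0.34 ± 0.15, 0.52 ± 0.21 and 0.32 ± 0.09 with RSG (adjusted p = 3.89e-06, 1.54e-09 and 1.4e-05) and at 0.41 ± 0.07, 0.43 ± 0.08 and 0.13 ± 0.16 with S (adjusted p = 2.61e-07, 7.87e-08 and 0.0331). All 18 RSG mice were above the pool, between 0.15 and 0.90. Only 4 of 6 mice were above it at 280 µmol/kg S, from -0.07 to 0.37, and the call was lost without any 1 of replicates 1, 3, 4 and 5, with scan day blocked (0.16, adjusted p = 0.0975) and with no filter on dim probes (adjusted p = 0.0501). Without these mice its values were 0.12, 0.13, 0.13 and 0.09. The highest means were those of the middle dose of each compound.

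Ppara rose in liver by little: 0.25, 0.18 and 0.30 with RSG (adjusted p = 0.00225, 0.0257 and 0.000503) and 0.21 and 0.22 at the lower doses of S (adjusted p = 0.0142 and 0.00748), with 0.13 at 280 µmol/kg S (95% confidence interval -0.01 to 0.27). Mice ran from -0.02 to 0.54 with RSG and from -0.14 to 0.47 with S. With scan day blocked the calls at 84 µmol/kg RSG and at 28 and 84 µmol/kg S were lost (0.16, 0.02 and 0.19, adjusted p = 0.148, 0.924 and 0.0856), while 280 µmol/kg S passed (0.19, adjusted p = 0.0454). The call at 84 µmol/kg RSG was also lost without replicate 1, 2 or 3 (0.18, 0.14 and 0.16), that at 28 µmol/kg S without replicate 1 or 3 (0.16 and 0.17) and that at 84 µmol/kg S without replicate 1 (0.17), and 280 µmol/kg S passed without replicate 5 or 6 (0.19 and 0.18). The adipocyte list stood higher in these livers, 6 of 8 tested markers at 280 µmol/kg RSG and 5 of 8 at the same dose of S, led by Cfd at 6.75 and 4.99 and Fabp4 at 3.39 and 4.70, while Adipoq was at -0.52 with either compound at this dose, did not pass, and was lower in the 4 groups at 28 and 84 µmol/kg (-1.09 to -0.65). Retn stood at 2.33 with RSG and at -0.47 with S (adjusted p = 0.0235). Aqp7, counted as higher with both compounds, and Plin1, counted with S, were well above background on 2 and 29 of 72 liver pool arrays. They were thus tested only because a treated group was above background, which favours a higher value. The part of the adipocyte list in the Pparg values was not tested.

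Of the RXRs in liver, the main probe of Rxra was below the pool in all 36 mice. Its means were -0.54, -0.49 and -0.44 with RSG and -0.39, -0.52 and -0.71 with S (largest adjusted p = 1.01e-08), and at 280 µmol/kg S the lowest, median and highest mouse stood at -0.80, -0.71 and -0.63. Probe 2 went the other way at that dose, to 0.23 ± 0.14 (adjusted p = 0.00131), and was between -0.04 and 0.11 in the other groups, none of which passed. Rxrg fell at 84 and 280 µmol/kg of each compound, by 0.14 and 0.23 with RSG and by 0.17 and 0.44 with S (adjusted p = 0.0292, 0.00094, 0.0106 and 1.95e-08), of which both calls at 84 µmol/kg were lost with scan day blocked (adjusted p = 0.222 and 0.175), that of RSG also without any 1 of replicates 1, 2, 3, 4 and 6 (-0.14 to -0.11) and that of S also with normexp and loess (-0.13, adjusted p = 0.0547). Rxrb stood between -0.02 and 0.09 and passed in 1 group, at 84 µmol/kg S (0.09 ± 0.05, adjusted p = 0.0246), a call that was lost without replicate 5 or 6 (0.08 and 0.07). The liver RXRs thus stood below the pool (main probe of Rxra, Rxrg) or near it (Rxrb).

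Both coactivators fell in liver. Ppargc1a was below the pool in all 36 mice, with -0.69 ± 0.24, -0.66 ± 0.19 and -0.61 ± 0.36 with RSG and -0.56 ± 0.17, -0.71 ± 0.31 and -0.85 ± 0.57 with S (largest adjusted p = 0.000715), or 0.554-fold to 0.678-fold of the pool. The spread between mice was wide, from -1.04 to -0.03 at 280 µmol/kg RSG and from -1.71 to -0.31 at 280 µmol/kg S, and the second probe gave -0.69 to -0.88 over the 6 groups. Ppargc1b fell by 0.23 and 0.30 at 28 and 84 µmol/kg RSG and by 0.24, 0.20 and 0.38 with S (adjusted p = 0.00251, 0.000197, 0.00234, 0.00936 and 4.2e-06), and at 280 µmol/kg RSG the brightest probe was at -0.12 (95% confidence interval -0.25 to 0.01) while probe 2 passed at -0.29 and probe 3 stood at -0.06. Probe 4 was well above background on 5 of 12 treated arrays of that group and is not read there. With scan day blocked the calls of the brightest probe at 28 and 84 µmol/kg RSG were lost (adjusted p = 0.244 and 0.178).

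Esrra fell in all 6 liver groups with no mouse above the pool. The means were -0.31, -0.21 and -0.28 with RSG and -0.20, -0.26 and -0.64 with S (largest adjusted p = 2.54e-05), and its second probe was at -0.22 to -0.68. With scan day blocked the call at 28 µmol/kg S was lost (-0.16, adjusted p = 0.204). At 280 µmol/kg S the lowest, median and highest mouse stood at -0.82, -0.58 and -0.55, apart from every other liver group. All 11 tested skeletal muscle markers were lower in liver at 280 µmol/kg of either compound (medians -1.19 and -1.31), at a summed level of 1.70 to 1.83 in the pool. The hepatocyte list was mixed, with 3 of 9 markers higher and 4 lower with RSG and 2 higher and 6 lower with S. Of the endothelial markers 7 and 4 of 8 were higher with RSG and S, and of the macrophage markers 4 and 3 of 9. Their part in the values was not tested.

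**Figure D3:**
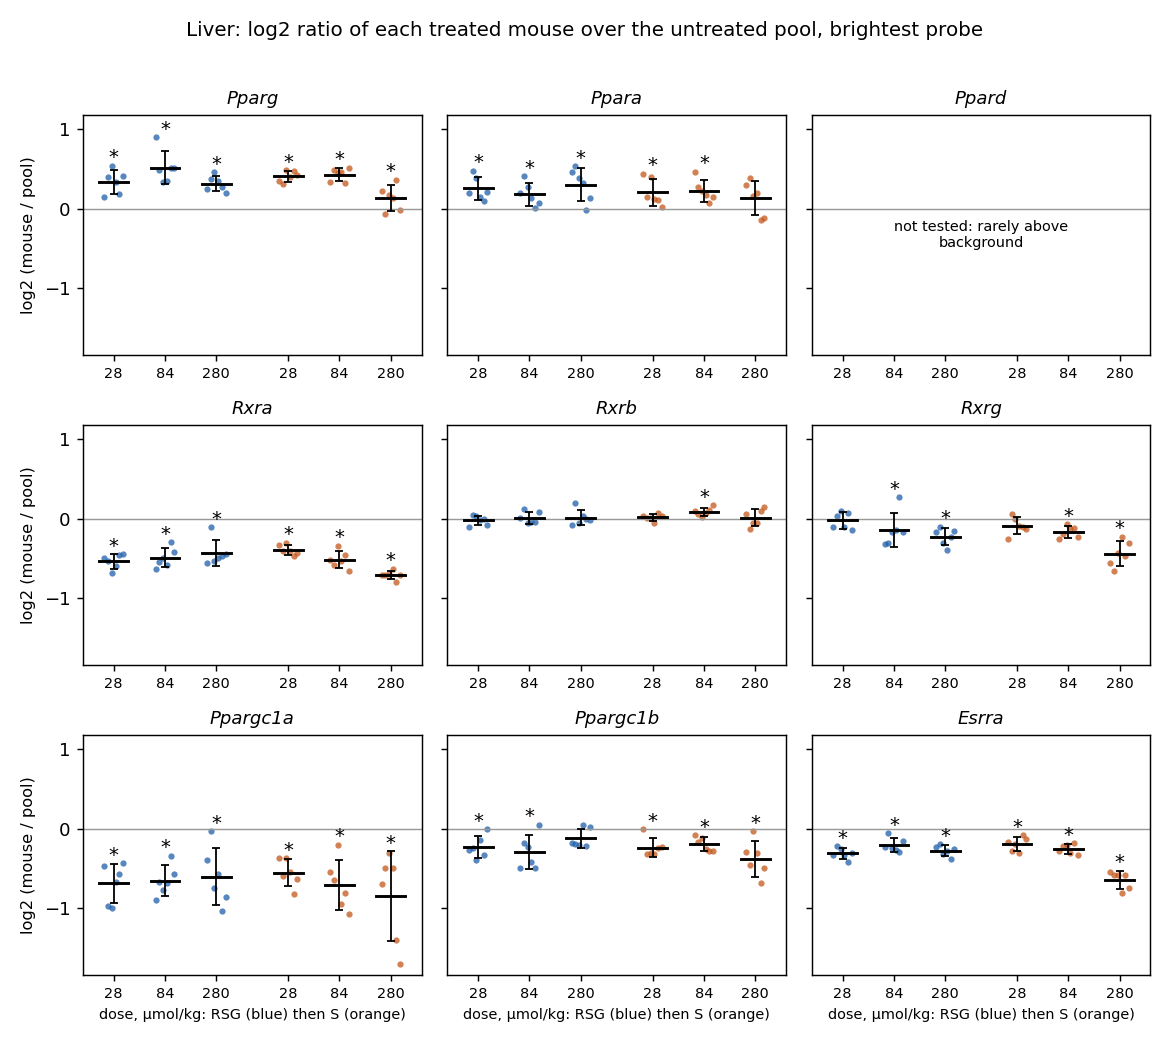
Log2 ratio of each liver mouse over the pool (points), with mean and SD (black), by dose in µmol/kg for RSG (blue) and S (orange), brightest probe; stars mark adjusted p under 0.05. Pparg and Ppara lie above the pool, Rxra, Ppargc1a and Esrra lie below it in every group, and the S group at 280 µmol/kg is lowest for Esrra (-0.64) and Rxra (-0.71).

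With rising dose 6, 7 and 6 of the 8 members tested in liver passed with RSG and 6, 8 and 6 with S. Over all liver probes the shares were 59.4%, 57.7% and 51.9% with RSG and 52.2%, 55.3% and 66.9% with S. With RSG at 280 µmol/kg 2 members were higher and 4 lower, where 22.1% and 29.8% of all probes were, and with S at that dose 1 was higher and 5 lower, where 28.8% and 38.1% of all probes were. Between 280 and 28 µmol/kg RSG no member differed by limma (0 of 8, where 0.0119% of all probes did). At an unadjusted p under 0.05 there was 1, Rxrg, with -0.20 (-0.36 to -0.04, adjusted p = 0.215). With S 4 of 8 were lower at the top dose and none higher, against 29.5% of all probes that differed in either direction (3291 higher and 4162 lower of 25256). Esrra was lower by 0.45 on the log2 scale (adjusted p = 4.15e-08) and Rxra by 0.32 (adjusted p = 0.000205), with no overlap of the mice, although a mean over both probes of Rxra gave -0.07 (adjusted p = 0.466). Rxrg was lower by 0.35 and Pparg by 0.27, with overlap, and the call for Pparg was lost with scan day blocked (adjusted p = 0.211). The liver groups at 280 and 28 µmol/kg S shared no scan day.

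The 2 series of 6 technical repeats of liver RNA at 28 µmol/kg show the spread of repeated measurement. They were scanned on days 1 and 2, which no group of mice shares, so an offset from the days of the mice is not in that spread. The SD over repeats of the brightest probes, Ppard left out, was 0.02 to 0.13, and the SD over mice of the matching group was 1.29 to 5.92 times as large, apart from Rxrg with S, where the repeats varied more (0.13) than the mice (0.11). For Pparg with RSG the repeats ran from 0.17 to 0.23 and the mice from 0.15 to 0.54. The repeats of some members lay outside the range of the mice: Rxrg was at -0.34 and -0.53 in the repeats and at -0.02 and -0.09 in the mice with RSG and S, and Esrra at -0.13 and 0.06 against -0.31 and -0.20. The labels do not say which mouse gave the repeated RNA, so a difference between mice and an offset between scan days cannot be told apart.

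The responses of both tissues were compared at 280 µmol/kg in 1 fit of 72 samples over 24746 probes tested in both. By the methods, which describe the RSG mice, liver and IAT were both taken from each animal, but the labels do not link samples to animals, and this fit takes the tissues as separate. All 8 members tested differed with RSG and 7 of 8 with S, against 61.5% and 73.6% of all probes. The gap was widest for Ppargc1a with RSG, where IAT exceeded liver by 1.28 (95% confidence interval 0.94 to 1.63, adjusted p = 2.83e-09), and for Esrra with S, by 1.51 (1.39 to 1.63, adjusted p = 2.28e-31). Ppara exceeded its liver response by 1.26 and 1.48, Ppargc1b by 0.95 and 1.40, Rxrg by 0.52 and 0.93, the main probe of Rxra by 0.34 and 0.71 and Rxrb by 0.18 and 0.30. For Ppara, Ppargc1a, Ppargc1b and Esrra the mice of the tissues did not overlap with either compound. The share of all probes without overlap was not counted, in this or the other comparisons. Pparg alone went the other way with RSG, lower in IAT than in liver by 0.26 on the log2 scale (-0.48 to -0.05, adjusted p = 0.0309), a call lost with the slide as a random block (adjusted p = 0.0547), without liver replicate 2 or 3 (-0.25 and -0.24) and without IAT replicate 2 or 3 (-0.16 and -0.22), and with S the difference was 0.00 (-0.21 to 0.22). The median over all probes was 0.11 with RSG and 0.16 with S in this comparison, and each tissue had a pool of its own. No scan day held samples of both tissues, so tissue and scan day cannot be told apart.

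**Figure D4:**
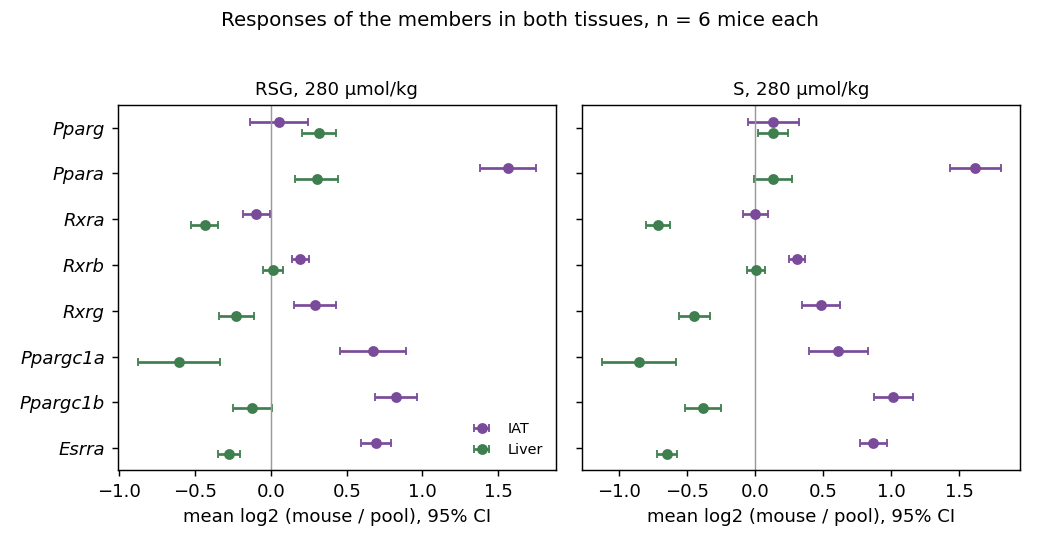
Mean log2 ratio over the pool with 95% confidence interval for the 8 members tested in both tissues at 280 µmol/kg RSG (left) and S (right), n = 6 mice per tissue. Ppargc1a, Ppargc1b, Esrra and Rxrg lie to the right of 0 in IAT and to the left in liver, and Pparg overlaps between the tissues with S.

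RSG and S were compared at each molar dose in 51 pairs of group means (9 members in IAT and 8 in liver), with p values adjusted over all probes, and 6 passed. At 28 µmol/kg limma called 0 of 9 members in IAT and 0 of 8 in liver, where 0.00649% and 0.915% of all probes passed, and at an unadjusted p under 0.05 there were 0 and 2 (Esrra and Rxra). In IAT at 84 µmol/kg, where 2.15% of all probes differed, Ppara was higher with RSG than with S by 0.55 (95% confidence interval 0.28 to 0.81, adjusted p = 0.0189) and Ppargc1b by 0.46 (0.26 to 0.66, adjusted p = 0.00926), with overlapping mice. These groups were scanned on different days, and with scan day blocked the values were 0.44 and 0.52 with adjusted p = 0.735 and 0.678. The call for Ppara was also lost with normexp and loess (0.44, adjusted p = 0.0705), with the slide as a random block (adjusted p = 0.0688), without RSG replicate 1 or 5 (0.47 and 0.51) and without S replicate 5 (0.48). At 280 µmol/kg in IAT 0 of 9 members passed, 2 of them with an unadjusted p under 0.05 (Esrra and Rxrb), where 1.57% of all probes passed. The difference was -0.05 (-0.32 to 0.21) for Ppara, 0.06 (-0.24 to 0.37) for Ppargc1a, -0.08 (-0.35 to 0.18) for Pparg, -0.18 (-0.32 to -0.04) for Esrra and -0.11 (-0.20 to -0.03) for Rxrb. The adjusted p was 0.149 for Esrra and 0.118 for Rxrb, and Rxrb passed with the scan day as a random block (-0.13, adjusted p = 0.0191). The IAT groups at 280 µmol/kg RSG and S shared no scan day, so compound and scan day cannot be told apart at this dose.

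In liver 4 of 8 members differed between the compounds at 280 µmol/kg, where 28.6% of all probes did, and 0 of 8 at 84 µmol/kg (0 also at an unadjusted p under 0.05), where 1.86% did. S was the lower in each case. Esrra differed by 0.37 (0.27 to 0.47, adjusted p = 1.36e-06), with RSG mice from -0.38 to -0.19 and S mice from -0.82 to -0.55. Rxra differed by 0.27 (0.15 to 0.40, adjusted p = 0.00115), also without overlap, but a mean over its probes gave 0.06 (adjusted p = 0.509). Ppargc1b and Rxrg differed by 0.26 and 0.22 (adjusted p = 0.0305 and 0.0374), with overlap, and both calls were lost with the slide as a random block (adjusted p = 0.0507 and 0.0548). That for Ppargc1b was lost without RSG replicate 4 or 6 or S replicate 2, 5 or 6 (0.20 to 0.24), and that for Rxrg without RSG replicate 1, 2, 5 or 6 or S replicate 1, 2, 3 or 5 (0.17 to 0.22). The call for Rxrg was also lost with normexp and loess, with no filter on dim probes and with scan day blocked (0.19, 0.22 and 0.14, adjusted p = 0.0634, 0.0588 and 0.51). Within the only scan day that holds both groups, with 2 mice each, the differences were 0.35 for Esrra, 0.29 for Rxra, 0.50 for Ppargc1b and 0.20 for Rxrg. For Pparg the difference was 0.18 (0.03 to 0.34, adjusted p = 0.0759), which passed without S replicate 5 (0.23, adjusted p = 0.0254), and for Ppargc1a 0.24 (-0.14 to 0.63).

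**Figure D5:**
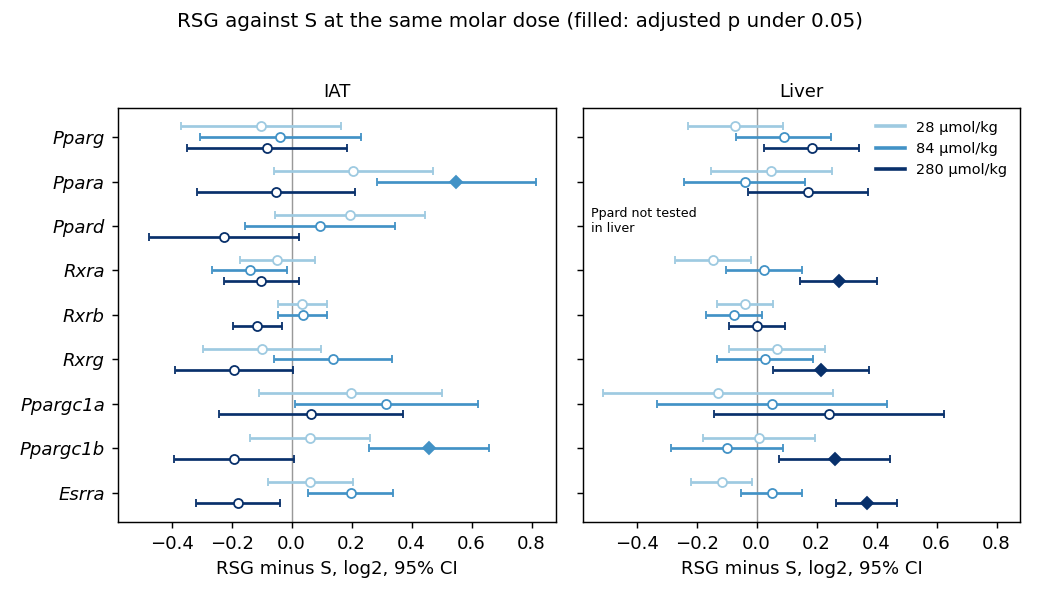
Difference of the mean log2 ratios, RSG minus S, with its 95% confidence interval for each member and dose in IAT (left) and liver (right); filled diamonds have an adjusted p under 0.05. The filled points are Ppara (0.55) and Ppargc1b (0.46) at 84 µmol/kg in IAT and Esrra (0.37), Rxra (0.27), Ppargc1b (0.26) and Rxrg (0.22) at 280 µmol/kg in liver.

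Genes that these receptors and coactivators are known to act on were described with fixed lists at 280 µmol/kg, RSG before S. Over all probes the shares to read their counts against were 37.1% and 42.7% higher and 29.8% and 32% lower in IAT, and 22.1% and 28.8% higher and 29.8% and 38.1% lower in liver. Of the mitochondrial targets of PGC1 and ERR, 19 of 20 were higher in IAT with each compound, with medians of 0.96 for RSG and S where the medians of all probes were 0.04 and 0.06. Ucp1, the uncoupling protein of brown fat, rose to 3.27 and 3.36. Ucp1, Cox7a1 and Cox8b are on this list and also on that of the brown adipocyte markers. Atp5mc1, a subunit of ATP synthase, was the exception at -0.04 and -0.21 (adjusted p = 0.756 and 0.0498). In liver, where the coactivators and Esrra were mostly below the pool, 15 and 11 of 19 targets were higher and 2 lower (medians 0.18 and 0.23). There Cycs, which encodes cytochrome c, rose to 0.58 and 0.93 and Uqcrc2, a subunit of complex III, to 0.32 and 0.23, and Cox8b, a subunit of cytochrome oxidase found in muscle and brown fat, fell to -0.85 and -0.92. Most targets thus stood above the pool in both tissues, the coactivators and Esrra in IAT only at this dose.

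The regulators of mitochondrial biogenesis split by tissue. In IAT 10 of 16 were higher with each compound (medians 0.22 and 0.24), among them Polrmt, the mitochondrial RNA polymerase, at 0.59 and 0.64 and Opa1, which fuses inner membranes, at 0.63 and 0.64, while Ckmt1, a mitochondrial creatine kinase, fell to -2.45 and -2.63. In liver 10 and 12 of 16 were lower (medians -0.16 and -0.19), with the deacetylase Sirt3 at -0.23 and -0.51 and the transcription factor Gabpa at -0.26 and -0.36, of which another probe was near 0, whereas Polg, the mitochondrial DNA polymerase, rose to 0.29 and 0.27.

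The adipocyte targets of PPARγ were mostly higher in both tissues, although Pparg itself passed in liver alone. Of these targets, Fabp4, Plin1, Cidec, Adipoq, Aqp7 and Lipe are also adipocyte markers above, and Cidea a brown adipocyte marker. In IAT 13 and 16 of 19 were higher with RSG and S (medians 0.62 and 0.79), with glycerol kinase Gk at 2.30 and 2.70 and the glycerol channel Aqp7 at 1.603 and 1.81, and the lipid droplet protein Plin4 lower at -0.86 and -1.16. In liver 13 of 18 were higher and 2 lower with each compound (medians 0.76 and 0.68). The lipid droplet proteins Cidec stood at 3.84 and 3.42 and Cidea at 3.71 and 4.78, and the glucose transporter Slc2a4 was lower at -0.83 and -0.85. The higher ones include Aqp7, and with S Plin1, tested in liver only because a treated group was above background. Of the liver targets of PPARα, 14 and 17 of 20 were higher in liver (medians 0.71 and 1.51) and 13 and 14 of 20 in IAT (medians 0.95 and 1.01). The peroxisomal enzymes Ehhadh and Acaa1b stood at 1.68 and 1.82 with RSG and at 3.20 and 1.97 with S in liver, and at 1.86 and 1.33 with RSG and 2.05 and 1.55 with S in IAT. Creb3l3 fell in liver (-0.77 and -0.42).

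Of 17 other partners of RXR and related nuclear receptors tested in liver, 8 were lower with RSG and 14 with S, and 1 higher with each (medians -0.09 and -0.25). Hnf4a, a master regulator of liver genes, fell to -0.48 and -0.68 and Nr2f6 to -0.23 and -0.36, while Rarb rose to 0.23 and 0.17. In IAT the list was mixed, with 5 and 6 of 19 higher and 8 and 7 lower: the liver X receptor Nr1h3 rose to 0.61 and 0.73, Nr1h4, the bile acid receptor, fell to -1.83 and -1.597, and Hnf4a to -4.36 and -4.50 on its brightest probe and -0.26 and -0.02 on the other. Adipogenic transcription factors were mixed as well, with shares in IAT near those of all probes, so that these counts do not set them apart. In IAT 6 of 18 were higher with each compound and 6 and 5 lower, with Srebf1 at 1.13 and 1.20, Cebpb at 0.51 and 0.74 and Klf4 at -1.15 and -1.25, and in liver 3 and 2 of 15 were higher and 4 and 6 lower, with Zfp423 at 0.54 and 0.81, Klf15 at -0.53 and -0.94 and Stat5b at -0.36 and -0.70.

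The coregulators that bind these receptors moved by small amounts. Of 22, 7 and 9 were higher and 8 and 6 lower in IAT, and 5 and 5 higher and 6 and 11 lower in liver, and the list medians lay between -0.08 and 0.05. Apart from the 11 lower in liver with S, these counts are near the shares over all probes. In IAT the exchange factor Tbl1xr1 rose to 0.61 and 0.74, as did the deacetylase Hdac3, to 0.25 and 0.17. In liver the coactivator Ncoa2 fell to -0.27 and -0.45 and Med1, a mediator subunit, to -0.26 and -0.31 on their brightest probes, whereas other probes of Ncoa2 reached 0.08 and 0.33, and Hdac3 rose to 0.24 and 0.26.

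The genes whose log2 ratios ran most like a member's over the 36 mice of a tissue are given as a description, since all mice share the pool and the dose groups. For Esrra in IAT these were Cycs (Pearson r = 0.99), Mtres1 and Mrpl12 (both 0.99), genes of mitochondria, and within dose groups r was 0.95, 0.92 and 0.95. For Ppara in IAT they were Hadh, an enzyme of mitochondrial fatty acid oxidation (0.97), Fuom and Oplah (both 0.96). For Ppargc1a in IAT they were Ndufa5, a subunit of complex I, and Fmc1 (both 0.95) and Cox8b (0.94), for Rxrg Kcnj16, Clstn3 and Mcph1 (each 0.93), and for Pparg Syt12 (0.88), Hykk and Rspry1 (both 0.86).

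Among the members in IAT, Ppara ran with Ppargc1b (r = 0.95) and Esrra (0.90), and Ppargc1b with Esrra (0.93). Ppargc1a ran with Ppargc1b at 0.82 and with Esrra at 0.81, but within dose groups at 0.08 and 0.08 only. Within dose groups Ppara and Ppargc1b kept 0.72, and Rxrg and Esrra, at 0.86 over all mice, kept 0.82. In liver the likenesses over all 36 mice were weaker and fell on other genes. For Pparg they were Cryz, Bckdha and Fahd2a (0.76, 0.74 and 0.74) and for Ppara Zfp644, Smurf2 and Arhgap5 (each 0.88). For Rxrg they were Tax1bp1, Tshz2 and Cd1d1 (0.80, 0.77 and 0.77) and for Ppargc1a Klf9, Ift74 and Scaf11 (0.82, 0.82 and 0.79). For Esrra in liver they were Slc37a4, the glucose 6-phosphate transporter, at 0.93 and the urea cycle enzyme Asl and Extl1 at 0.92. Within dose groups these of Esrra were 0.72, 0.60 and 0.67. Those of Ppara were not weaker within dose groups, at 0.88, 0.90 and 0.87 in liver and 0.85, 0.84 and 0.80 in IAT. Those of Ppargc1a were 0.84, 0.83 and 0.79 in liver and 0.83, 0.79 and 0.79 in IAT. Those of Pparg and Rxrg ran from 0.60 to 0.74 in liver and from 0.86 to 0.88 in IAT. Among the members of liver the highest was that of Pparg with Esrra (0.64, and 0.22 within dose groups). The main probe of Rxra with Ppargc1a (0.60) kept 0.60 within dose groups, and Ppara with Ppargc1a (0.50) kept 0.49.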

How the data were processed

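RNA of liver and IAT in 72 samples of treated db/db mice (12 groups of 6) was measured on 2-colour Agilent arrays of 60-mer probes, 2 arrays with exchanged dyes per sample, against a pool of untreated db/db RNA. The authors processed the scans with Agilent Feature Extraction 9.5, with local background subtraction and local Lowess. The deposited scanner files give a log10 ratio of red over green per spot, an error score of that ratio, processed, mean and background intensity of both channels, and 0 or 1 marks (background, saturation, outlier). A deposited value table gives log10 ratios per sample. Of its 84 columns 4 did not match the arrays of their sample best (IAT S 84 µmol/kg replicate 6 and IAT S 280 µmol/kg replicates 4, 5 and 6) and were left out where that table was used.

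Log10 ratios were turned to treated over pool, converted to log2, and averaged over the dye-swap pair and over spots of a probe, outlier spots left out. Raw ratios of the arrays of a pair correlated between -0.94 and -0.62. Of 41174 probes, 23374 were named through RefSeq accessions, the others by the name in the files. Each tissue was fitted with limma 3.58.1 in R 4.3.3 (lmFit, eBayes; 36 mice, group means, no covariate), with Benjamini-Hochberg adjustment over all probes tested and a threshold of 0.05. A member's value is that of its brightest probe. The 2 tissues were compared in a fit of all 72 samples. P values measure the spread between mice of these groups. Fits were tested on simulated data.

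The members and lists were chosen with earlier results of these data known. Named genes were the members, the 2 genes of smallest p per list and tissue at 280 µmol/kg RSG with the 1 of smallest p in the other direction, and the 3 genes most correlated with a member. Some genes that this rule names are not reported here. Alternatives were normexp (offset 50) with loess, the value table, no filter on dim probes, scan day, slide or replicate number as a block, the mean of a gene's probes, the thresholds of the methods, and leaving out each mouse. The number of arrays limits the precision. Protein sequences were not used here.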

Additional observations from a re-analysis of the deposited data

Results flagged for a closer look

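In 9 of 108 groups of 6 mice a single mouse stood far from the other 5, where chance gives about 1 in 20. Of these, 3 were the same mouse, IAT RSG 280 µmol/kg replicate 2, lowest for Esrra (0.31, others 0.68 to 0.87), Ppara (1.03, others 1.58 to 1.80) and Rxrg (-0.32, others 0.32 to 0.47). Without it the means were 0.77, 1.67 and 0.41. In liver, Pparg was at 0.90 in RSG 84 µmol/kg replicate 1 (others 0.34 to 0.51), Ppargc1b at -0.0053 in S 28 µmol/kg replicate 1 (others -0.32 to -0.24), Rxra at -0.11 in RSG 280 µmol/kg replicate 2 (others -0.56 to -0.45) and Rxrg at 0.27 in RSG 84 µmol/kg replicate 5 (others -0.32 to -0.15). In IAT, Rxra was at -0.21 in RSG 84 µmol/kg replicate 4 (others -0.07 to -0.03) and Rxrg at -0.41 in RSG 28 µmol/kg replicate 3 (others -0.02 to 0.17).

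The response at 280 µmol/kg differed between the tissues for 15 of 16 pairs tested by limma, where 61.5% of all probes differed with RSG and 73.6% with S. Tissue and scan day cannot be told apart there. With RSG, IAT minus liver was 1.28 for Ppargc1a, 1.26 for Ppara, 0.97 for Esrra, 0.95 for Ppargc1b, 0.52 for Rxrg, 0.34 for Rxra, 0.18 for Rxrb and -0.26 for Pparg. With S it was 1.51 for Esrra, 1.48 for Ppara, 1.46 for Ppargc1a, 1.40 for Ppargc1b, 0.93 for Rxrg, 0.71 for Rxra and 0.30 for Rxrb.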

How the results depend on the processing

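Of the members' values, 39 of 48 passed against the pool in liver, 25 of 54 in IAT, 6 of 51 between RSG and S, 17 of 34 between 280 and 28 µmol/kg and 15 of 16 between the tissues. They are given here to compare settings, and the shares of all probes that passed stand with each comparison in the Results. With the thresholds of the methods (unadjusted p under 0.001 and 1.3-fold) these counts were 18, 16, 2, 11 and 11, since many shifts were under 1.3-fold. With the slide as a random block, an alternative chosen after seeing the data, 3 of 51 passed between RSG and S, and the cause was not tested. The counts ran from 31 to 40 in liver, 24 to 27 in IAT, 4 to 7 between RSG and S, 15 to 17 between doses and 14 to 15 between tissues under the other alternatives, slide included where not named. The lowest, 31, came with scan day as a fixed term in the liver fit. In IAT scan day entered the comparisons with the pool as a random block, so the settings of the tissues differ. Between the tissues, and in IAT between 280 µmol/kg S and 28 µmol/kg S or 280 µmol/kg RSG, the groups compared shared no scan day. Scan day entered there as a random block, which cannot separate it from tissue, dose or compound. In the other comparisons between groups it was a fixed term. Of these, only 280 µmol/kg RSG in liver, against 28 µmol/kg RSG or 280 µmol/kg S, had a shared scan day. The mean of a gene's probes reversed Rxra in IAT at 84 and 280 µmol/kg RSG, to 0.16 and 0.17, because its probes disagree.

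Mice share only a number: their deviations correlated with medians of 0.10 in liver and 0.13 in IAT, and not all pairs exceeded 0.1 (45 of 90 and 47 of 90; between liver and IAT of a group the median was 0.14, with 21 of 36 over 0.1). With the replicate number as a block 40, 27, 7, 17 and 15 values passed, with gains for Pparg and Esrra in IAT at 28 µmol/kg S (adjusted p = 0.0387 and 0.0412), for Ppara in liver at 280 µmol/kg S (0.00756) and for Ppara between RSG and S there (0.0297). Leaving out 1 mouse kept 367 of 384 calls against the pool and lost 17, and 2 of 228 fits of values that had not passed gained one. In the comparisons between groups, where it was added after seeing the data, 435 of 456 calls were kept, 21 lost and 1 of 756 gained. Within scan day 8, with 2 mice a group, 3 of 16 liver values moved by over 1 SD: Rxrb (-0.13) and Ppargc1b (0.50) between RSG and S at 280 µmol/kg, and Ppargc1a (-0.45) between 280 and 28 µmol/kg RSG. Loess moved the median of all probes by -0.12 to 0.04. Signals near the background limit Ppard and, in liver, probe 4 of Ppargc1b.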
